A study of Canis lupus familiaris with 12 samples.

Results

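The miRNAs cfa-miR-22, cfa-miR-193a, cfa-miR-193b and cfa-miR-365, written below without the prefix for dog, were compared between CHMm, a canine mammary gland tumor (CMGT) cell line, and its tamoxifen (TAM)-resistant derivative CHMmTAM. They were chosen by name, because miR-22 and miR-193b are known repressors of the estrogen receptor and miR-365 shares genomic clusters with miR-193. All 4 names were found among the 453 canine miRNAs of the count table, and all 4 were among the 284 miRNAs tested. CHMm came from a metastatic lesion, the pleural effusion of a female mixed-breed dog. CHMmTAM was raised from CHMm in increasing TAM over 10 months until it grew in 10 μM TAM, was kept at 10 μM for 1 month more and was then held without the drug for 1 week. The study lists a phenol-red-free medium with serum stripped of steroids by charcoal, and with 4-hydroxytamoxifen. It does not say apart which medium the parental line had. Whether depletion of steroids was shared by the parental and the resistant libraries is therefore uncertain. The comparison rests on 3 small RNA libraries of each line, and only 1 resistant line was profiled, so that resistance and other divergence between the cultures cannot be told apart. No source states that the 3 libraries came from separate cultures, so p-values reflect only spread between these libraries, which may be technical. In the main test that spread is pooled over miRNAs, so a p-value there does not measure the spread of its own miRNA alone.

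A miRNA guides the Argonaute complex to mRNAs that pair with its seed, the stretch near the 5′ end of the miRNA, and lowers their stability and translation. The estrogen receptor gene ESR1 encodes the nuclear receptor that TAM antagonizes, and several miRNAs are known to bind its mRNA in human breast cancer cells. miR-22 and miR-193b belong to these. miR-193a is the paralog of miR-193b with the same seed. miR-365 has a different seed and is encoded beside miR-193 in mammals. In the RefSeq genes of the dog assembly UU_Cfam_GSD_1.0, MIR365-1 is the direct neighbour of MIR193B and MIR365-2 is the direct neighbour of MIR193A. MIR365-1 and MIR193B lie within 10 kb of each other, while MIR365-2 and MIR193A lie farther apart. The table holds 1 row for miR-365, so that reads from its 2 genes cannot be assigned to either cluster. MIR22 lies apart from these genes, between the protein-coding gene TLCD2 and the lncRNA LOC111097459. Levels of ESR1 mRNA and of other target mRNAs were not analysed here.

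Library totals ranged from 7512659 to 12482211 counts, of which miR-21 alone took from 50.2% to 54.5%. The epithelial miRNAs (miR-200a, miR-200b, miR-200c, miR-141, miR-429, miR-203 and miR-205) were all detected and summed to between 24457 and 26852 CPM (counts scaled to a common library total, here of all counts) in CHMm and between 21958 and 23739 CPM in CHMmTAM. Of these 7, miR-205 fell from 5998 to 3802 CPM and miR-203 fell by 0.24 on the log2 scale at FDR below 0.05 by edgeR's quasi-likelihood test with TMM scaling. MiR-429, miR-200a and miR-200b rose by 0.36, 0.27 and 0.21 on that scale, calls that upper-quartile normalization did not keep, with miR-200b then at -0.032. MiR-200b also missed the threshold with RLE size factors, with library totals and with TMM without the 10 most abundant miRNAs. MiR-200c and miR-141 did not pass with TMM scaling. With upper-quartile normalization both were called lower, at -0.30 and -0.34, and miR-141 also with RLE size factors, at -0.16. Of the 6 blood miRNAs, 2 had at most 3 counts in every library, and the list summed to between 4.99 and 6.12 CPM in CHMm and between 12.2 and 15.0 CPM in CHMmTAM. Of the 4 blood miRNAs tested, 2 rose at FDR below 0.05 with TMM scaling. These were miR-486, at a log2 fold change of 2.40, and miR-142, at 0.77. MiR-142 missed the threshold with upper-quartile normalization. The muscle list lay between 6.46 and 7.05 CPM in CHMm and between 29.3 and 29.6 CPM in CHMmTAM. All 3 muscle miRNAs tested rose and passed FDR below 0.05 in each of the 5 scalings run. With TMM scaling, miR-1, miR-133a and miR-133b were at log2 fold changes of 2.19, 2.11 and 1.79. The mesenchymal list lay between 38.6 and 48.3 CPM in CHMm and between 23.8 and 28.1 CPM in CHMmTAM. Most of it was miR-199, which fell from 37.8 to 21.2 CPM and was the only 1 of the 4 past FDR below 0.05 with TMM scaling. MiR-143 went the other way, at a log2 fold change of 0.54, without passing. The nervous system list, nearly all of it miR-9 and miR-128, lay between 2295 and 2334 CPM in CHMm and between 1657 and 1763 CPM in CHMmTAM, where miR-128 was at a log2 fold change of -0.86 and miR-9 at -0.062 with TMM scaling (FDR = 1.57e-32 by edgeR's quasi-likelihood test for miR-128, while miR-9, of the 5 scalings run, passed only with upper-quartile normalization, at -0.30). The endothelial miR-126 was under 0.3 CPM in every library. The part of these differences in the results below was not tested.

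None of the 4 miRNAs passed a false discovery rate (FDR) below 0.05 for a difference between the lines by edgeR's quasi-likelihood test on TMM-scaled counts (TMM is a trimmed mean that sets the libraries to a common scale). miR-22 was at 1.05 times its CHMm level in CHMmTAM, miR-365 at 1.08 times, miR-193b at 0.954 times and miR-193a at 0.919 times. Of all 284 tested miRNAs, 125 or 44% passed FDR below 0.05, and 32 or 11.3% also had a log2 fold change above 1 or below -1, the thresholds of the study. Of the 4 miRNAs, 0 passed either rule, and 0 had an unadjusted p below 0.05 by the same test. DESeq2's Wald test called 1 of them, miR-193a, at FDR below 0.05. All 4 absolute log2 fold changes lay below the median over the tested miRNAs, which was 0.41, and the 95% intervals of all 4 lay between -1 and 1 on the log2 scale. Over the 117 miRNAs above 50 CPM, which leave out miR-193b, that median was 0.26, and 59.8% passed FDR below 0.05.

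miR-22 was the most abundant of the 4. Its TMM-normalised level was 1516, 1345 and 1309 CPM in CHMm replicates 1, 2 and 3 and 1712, 1298 and 1380 CPM in the CHMmTAM replicates. The lines overlapped, since the lowest of the 6 values was that of CHMmTAM replicate 2 and the highest that of CHMmTAM replicate 1. CHMm averaged 1390 ± 111 CPM (SD, n = 3) and CHMmTAM 1463 ± 219 CPM (SD, n = 3). The log2 fold change was 0.074 (standard error 0.067, FDR = 0.387 by edgeR's quasi-likelihood test), with a 95% interval from 0.961-fold to 1.15-fold. miR-22 ranked 44 by abundance in CHMm and 41 in CHMmTAM.

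The CHMmTAM libraries spread more for miR-22 than for most miRNAs. Its coefficient of variation (CV) was 15.0% in CHMmTAM and 7.95% in CHMm, against medians of 5.48% and 4.50% over the 117 miRNAs above 50 CPM. In CHMmTAM, 2 of these 117 miRNAs had a larger CV. Counting error was between 0.676% and 0.954% of the value in each library, as miR-22 had between 10985 and 21863 counts. Without CHMmTAM replicate 1 the log2 fold change of miR-22 was -0.031, and under upper-quartile normalization it was -0.17 (FDR = 0.0648 by edgeR's quasi-likelihood test). DESeq2 gave its fold change a standard error of 0.15, which is larger than the edgeR error above.

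**Figure D1:**
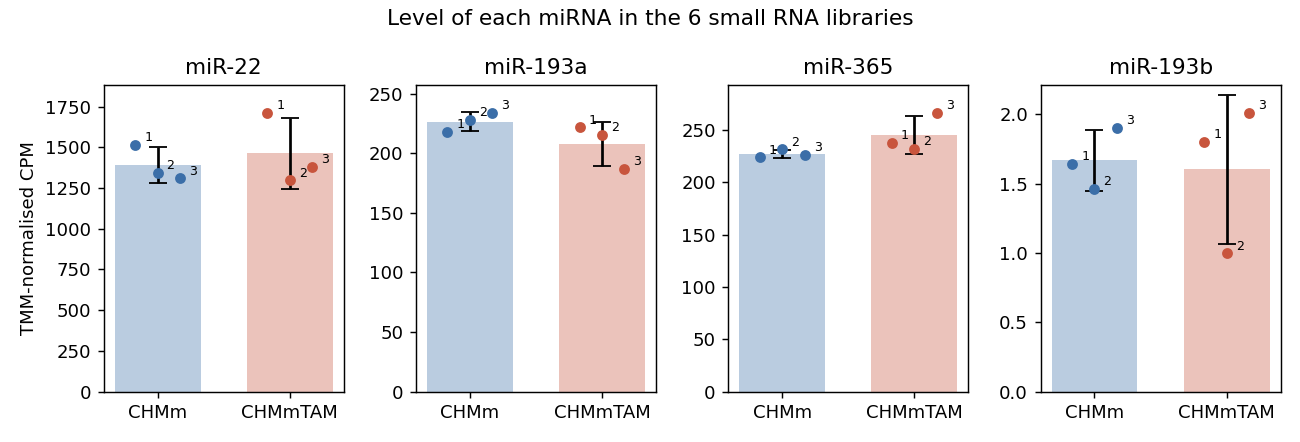
TMM-normalised CPM (y axis, from 0, a separate scale per panel) of miR-22, miR-193a, miR-365 and miR-193b in CHMm (blue) and CHMmTAM (red). Bars are means, error bars are SD and points are the 3 numbered libraries of each line; CHMmTAM replicate 1 stands above the other libraries for miR-22 and CHMmTAM replicate 3 below them for miR-193a.

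miR-193a, which pairs with its targets through the same seed as miR-193b, was at 218, 228 and 234 CPM in the CHMm replicates and at 222, 215 and 187 CPM in the CHMmTAM replicates. The lines overlapped, and CHMmTAM replicate 3 alone lay well below the others. CHMm averaged 227 ± 8.02 CPM (SD, n = 3) and CHMmTAM 208 ± 18.5 CPM (SD, n = 3). The log2 fold change was -0.12 (standard error 0.076, FDR = 0.197 by edgeR's quasi-likelihood test), with a 95% interval from 0.829-fold to 1.02-fold. Without CHMmTAM replicate 3 it was -0.035.

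The call for miR-193a depended on the scaling between libraries. The log2 fold change was -0.18 with RLE size factors (FDR = 0.0285 by edgeR's quasi-likelihood test), and -0.18 with TMM factors computed without the 10 most abundant miRNAs (FDR = 0.0382 by the same test). It was -0.37 with upper-quartile normalization (FDR = 2.77e-05 by the same test), and -0.18 with the DESeq2 Wald test (adjusted p = 0.0392). These scalings also moved the median of all tested miRNAs, from 0.060 with TMM to -0.002 with RLE size factors and -0.181 with upper-quartile normalization. Relative to that median, the log2 fold change of miR-193a was -0.18 in each of the 5 scalings. A change of scaling shifts all log2 fold changes by nearly the same amount. This constancy therefore had to arise, and adds no support for a fall. With RLE size factors and 1 library left out, it passed FDR below 0.05 in 1 of 6 fits, and the log2 fold change ranged from -0.24 to -0.11, the latter without CHMmTAM replicate 3.

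**Figure D2:**
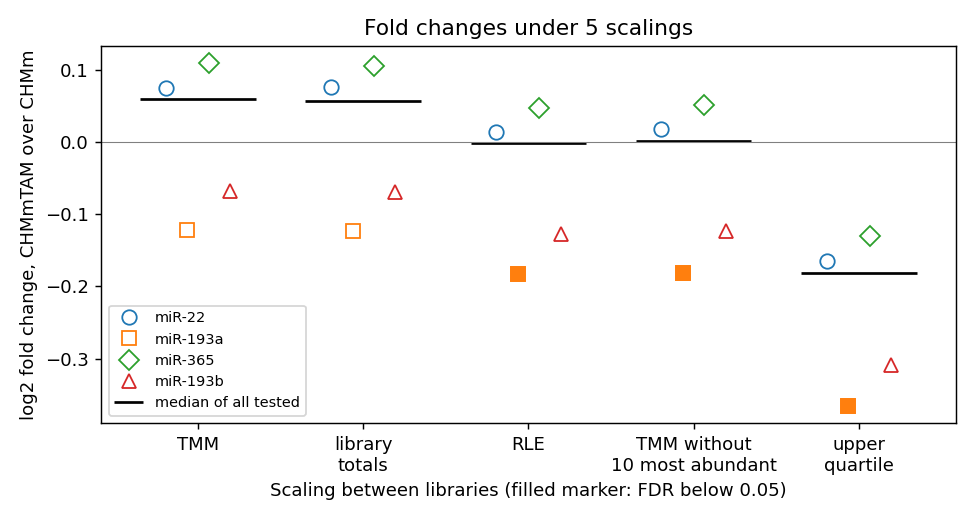
log2 fold change of CHMmTAM over CHMm (y axis) for each of the 4 miRNAs under 5 scalings of the libraries (x axis), with filled markers at FDR below 0.05 by edgeR's quasi-likelihood test and black lines for the median of all tested miRNAs. The 4 miRNAs shift together with that median, and miR-193a is filled under 3 of the 5 scalings.

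miR-193b, the one of the miR-193 pair known as a repressor of ESR1, was the least abundant of the 4. It had 12, 17 and 17 counts in the CHMm replicates and 23, 11 and 16 counts in the CHMmTAM replicates. These correspond to 1.64, 1.46 and 1.90 CPM in CHMm and to 1.80, 0.997 and 2.01 CPM in CHMmTAM after TMM scaling. The highest and the lowest value both belonged to CHMmTAM, so that the lines overlapped. CHMm averaged 1.67 ± 0.220 CPM (SD, n = 3) and CHMmTAM 1.60 ± 0.535 CPM (SD, n = 3). The log2 fold change was -0.068 (standard error 0.38, FDR = 0.923 by edgeR's quasi-likelihood test), with a 95% interval from 0.571-fold to 1.60-fold. The interval gives the changes compatible with these counts. It is not the smallest change that could be detected, and changes beyond it could also be missed at this depth. As shares of all counts, the lowest library gave 0.994 CPM with a 95% Wilson interval from 0.555 to 1.78 CPM, and the highest 1.97 CPM with an interval from 1.21 to 3.19 CPM. These intervals overlap and cover counting error only. The detection limit, taken as 3 counts, was between 0.240 and 0.399 CPM.

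Nearly all miR-193 counts were therefore on miR-193a. miR-193b took 0.747%, 0.638% and 0.806% of the summed miR-193 counts in the CHMm replicates and 0.806%, 0.461% and 1.06% in the CHMmTAM replicates. The 95% Wilson intervals of these shares all overlapped, with lower ends from 0.257% to 0.656% and upper ends from 0.823% to 1.72%. The study does not state how reads that fit both paralogs were counted, so the split between miR-193a and miR-193b is uncertain. With both rows summed, the log2 fold change was -0.12 (FDR = 0.188 by edgeR's quasi-likelihood test).

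miR-365 was at 224, 231 and 226 CPM in the CHMm replicates and at 238, 232 and 266 CPM in the CHMmTAM replicates. All 3 CHMmTAM values lay above the 3 CHMm values, by 232.0 against 231.4 CPM where they came closest. This gap is smaller than the counting error of either library, which was 1.98% and 1.93% of the value. Non-overlap in this direction was found for 28.9% of all tested miRNAs, and in either direction for 51.8%, while 1 of the 4 miRNAs showed it. CHMm averaged 227 ± 3.82 CPM (SD, n = 3) and CHMmTAM 245 ± 18.5 CPM (SD, n = 3). The log2 fold change was 0.11 (standard error 0.075, FDR = 0.241 by edgeR's quasi-likelihood test), with a 95% interval from 0.974-fold to 1.20-fold. It turned to -0.13 under upper-quartile normalization, again without passing the threshold (FDR = 0.156 by the same test). The CHMm libraries were nearly alike for miR-365, with a CV of 1.68%, and 107 of the 117 miRNAs above 50 CPM had a larger one there.

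**Figure D3:**
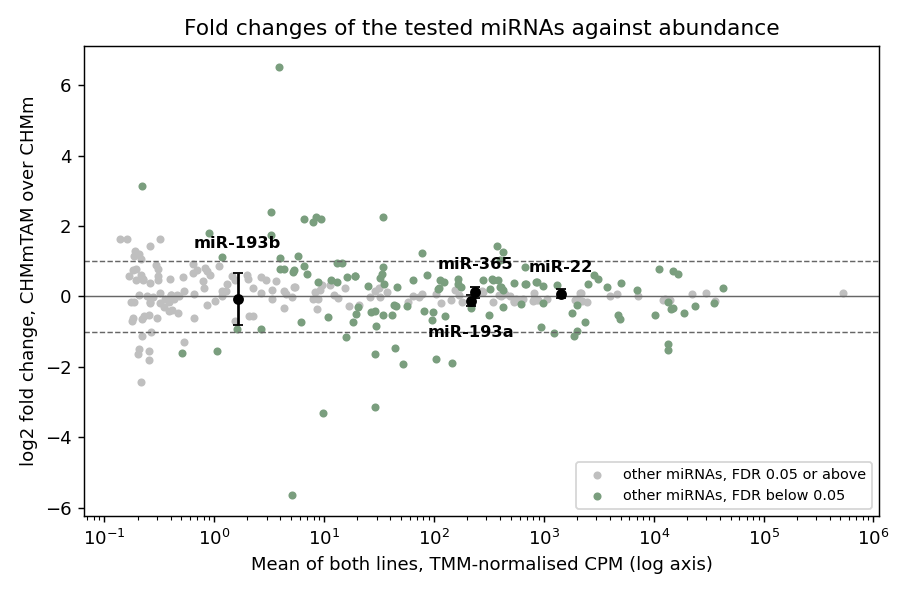
log2 fold change of CHMmTAM over CHMm (y axis) against the mean TMM-normalised CPM of both lines (x axis, log axis) for the 284 tested miRNAs, with the 4 named miRNAs in black and their 95% intervals. Green points passed FDR below 0.05, and dashed lines mark log2 fold changes of 1 and -1; the 4 named miRNAs lie close to 0, and miR-193b has the widest interval.

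In the order of levels, miR-22 stood first and miR-193b last in both lines, without overlap with the other miRNAs. miR-365 and miR-193a came between them. In CHMm their levels overlapped, with ranks 88 and 89 among the 284 miRNAs. In CHMmTAM the lowest miR-365 value of 232 CPM lay above the highest miR-193a value of 222 CPM. Efficiency of capture in small RNA libraries differs between miRNAs, so an order of levels within a library need not be the order of molecules in the cell. Summed over the 4 miRNAs, the share of the library was 0.185% ± 0.0056 (SD, n = 3) for CHMm and 0.192% ± 0.026 (SD, n = 3) for CHMmTAM. The highest share was 0.222% in CHMmTAM replicate 1 (95% Wilson interval from 0.220% to 0.225%), and miR-22 made up from 73.9% to 78.8% of the 4 in each library.

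Ratios between the miRNAs within a library do not depend on the scaling between libraries, and were used to ask whether the 4 miRNAs moved by unequal amounts. Of the 6 pairs, miR-365 over miR-193a was the only ratio without overlap between the lines. Among single tested miRNAs, 51.8% showed no overlap in either direction, and the share over other pairs was not computed. There were 1.03, 1.02 and 0.967 counts of miR-365 for each count of miR-193a in the CHMm replicates and 1.07, 1.08 and 1.43 in the CHMmTAM replicates. The log2 ratio was 0.0048 ± 0.046 (SD, n = 3) in CHMm and 0.24 ± 0.23 (SD, n = 3) in CHMmTAM, a difference of 0.24. The two-sided exact permutation test gave p = 0.1, the smallest that 3 against 3 libraries allow, and 0.6 after Benjamini-Hochberg adjustment over the 6 pairs. CHMmTAM replicate 3 carried much of it, as the difference was 0.10 without that library.

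The other 5 pairs overlapped between the lines. The difference in log2 ratio was 0.19 for miR-22 over miR-193a (exact permutation p = 0.2), from 0.12 without CHMmTAM replicate 1 to 0.30 without CHMmTAM replicate 2, and -0.042 for miR-22 over miR-365 (exact permutation p = 0.8). For the pairs with miR-193b it was 0.18 for miR-22, -0.013 for miR-193a and 0.22 for miR-365 (exact permutation p = 0.5, 1 and 0.7). Adjusted over the 6 pairs, these values ranged from 0.6 to 1. Such tests cannot pass 0.05 at this number of libraries, and do not show that the ratios are equal.

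**Figure D4:**
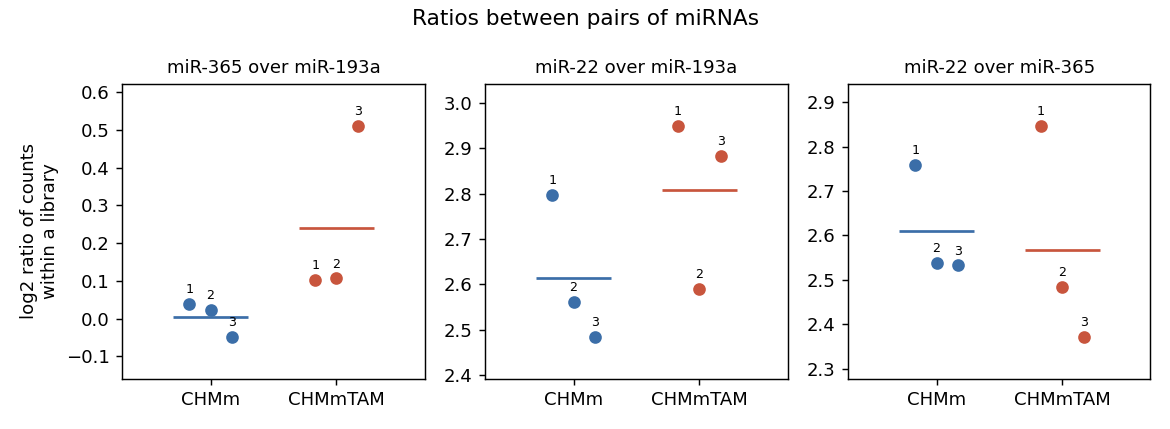
log2 ratio of counts within a library (y axis, a separate scale per panel that does not start at 0) for 3 pairs of miRNAs in CHMm (blue) and CHMmTAM (red), with the numbered libraries as points and their mean as a line. For miR-365 over miR-193a the CHMmTAM libraries lie above the CHMm libraries and replicate 3 stands apart; in the other panels the lines overlap.

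Among the 114 other miRNAs above 50 CPM, the profiles most like each miRNA were found by the Euclidean distance of mean-centred log2 CPM over the 6 libraries. Nearest to miR-22 were miR-423a (distance 0.224), miR-92a (0.225) and let-7d (0.264). Nearest to miR-193a were miR-1343 (0.0936), miR-374a (0.134) and miR-125b (0.135). For miR-365 they were miR-95 (0.146), miR-98 (0.151) and miR-181d (0.155). For miR-193b, whose CV was 33.4% in CHMmTAM, the nearest profiles lay much farther away, with let-7a at 0.731, miR-30c at 0.736 and miR-92a at 0.743. These distances describe the 6 libraries and carry no test.

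Other miRNAs known to repress ESR1 were read from the same fit. Of the 13 names listed, 12 were in the table and 10 were tested. 4 of the 10 rose in CHMmTAM, 4 fell and 2 did not pass FDR below 0.05, against 25.4% and 18.7% of all tested miRNAs that rose and fell. Of the 117 miRNAs above 50 CPM, 59.8% passed in either direction. For the 10 repressors of ESR1 in the fit, log2 fold changes had a median of 0.0067, against 0.060 for all tested miRNAs. miR-206, a muscle miRNA that represses ESR1, did not exceed 3 counts in a library, and miR-302c, a miRNA of embryonic stem cells, had 0 counts in each. In bulk RNA, fewer cells that express a miRNA and less of it per cell cannot be told apart.

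The miRNAs of this list that fell were miR-221, miR-222, let-7a and let-7b. miR-221 and miR-222, a clustered pair that targets ESR1 and the cell cycle inhibitor CDKN1B, were the only ones past both thresholds, at log2 fold changes of -1.52 and -1.36. let-7b, of the let-7 family that restrains growth and stem cell genes, averaged 16656 ± 699 CPM (SD, n = 3) in the CHMm libraries and 13365 ± 503 CPM in those of CHMmTAM, a log2 fold change of -0.32 (FDR = 2.35e-06 by edgeR's quasi-likelihood test). let-7a was at -0.18 (FDR = 0.0092 by the same test). It did not pass without CHMm replicate 1 (-0.14), CHMm replicate 2 (-0.18) or CHMmTAM replicate 2 (-0.14).

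The miRNAs that rose, miR-18a, miR-19a, miR-19b and miR-20b, belong to the proliferation-promoting miR-17-92 cluster and its paralogs. miR-20b rose by a log2 fold change of 0.58 from 15.1 ± 2.14 CPM (SD, n = 3) to 22.7 ± 4.31 CPM. miR-19a rose by 0.46 from 234 ± 19.2 CPM to 323 ± 65.1 CPM, and miR-18a by 0.45 from 325 ± 19.9 CPM to 445 ± 15.6 CPM. miR-19b was at 0.34, with overlap between the lines, and did not pass under upper-quartile normalization (0.095, FDR = 0.405 by edgeR's quasi-likelihood test). The other 3 kept their direction and passed in each of the 5 scalings, all by the same edgeR test. With DESeq2, miR-19a was at 0.40 with a standard error of 0.18 and passed narrowly (adjusted p = 0.0493 by the Wald test). Without CHMmTAM replicate 3, the log2 fold change of miR-19a was 0.31. miR-18b was at 0.18 (FDR = 0.609 by edgeR's quasi-likelihood test), from 0.061 without CHMm replicate 1 to 0.38 without CHMm replicate 2, and miR-145, which had at most 5 counts in a library, at -0.17 (FDR = 0.914 by the same test).

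**Figure D5:**
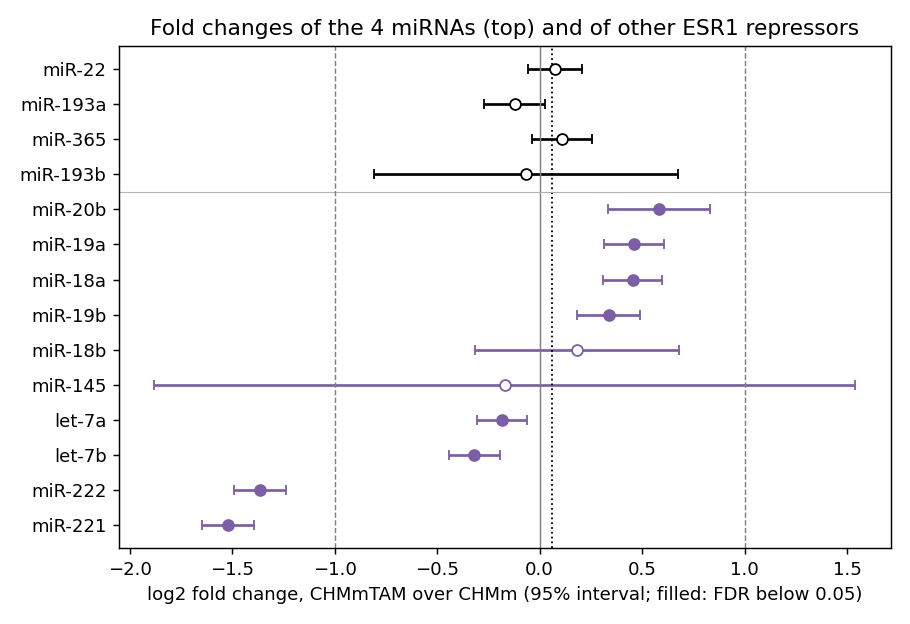
log2 fold change of CHMmTAM over CHMm (x axis) with 95% intervals for the 4 miRNAs (black, top) and for the 10 other tested repressors of ESR1 (violet). Filled points passed FDR below 0.05, dashed lines mark 1 and -1, and the dotted line is the median of all tested miRNAs; the 4 black points are open, and miR-221 and miR-222 are the only points beyond -1.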

How the data were processed

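The deposited table gives each library 1 column of unnormalized read counts over mature miRNAs of the dog. Per the labels, RNA was extracted with Trizol, miRNA was purified and sequencing was done on a HiSeq. The submitters' processing notes name BWA, HISAT2 2.0.4 and CanFam3.1 without their roles. The counting tool, the miRNA annotation and the handling of reads that match more than 1 miRNA are not given in the sources used here, and could move counts between paralogs. The files of the 6 RNA-seq libraries were not analysed here.

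Libraries were grouped by their labels. miRNAs with at least 10 counts over the 6 libraries were fitted with edgeR 4.0.16 (R 4.3.3), TMM factors and the quasi-likelihood test without a block, with Benjamini-Hochberg adjustment over all 284 miRNAs. Standard errors were derived from the F statistic. CPM values of single miRNAs use the TMM factors, and shares, marker sums and Wilson intervals (95%) use all counts. Ratios added 0.5 counts to each miRNA and were compared by two-sided exact permutation tests in SciPy 1.17.1. No pair of libraries within a line agreed within sampling noise (lowest chi-square over its degrees of freedom, 29.1).

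The miRNAs named are the 4 chosen, a list of other repressors of ESR1, and the 3 profiles nearest to each of the 4. Rows that share a seed with a member were also to be named, but mature sequences were not used here. Genes within 10 kb were to be named as neighbours; MIR365-2 is named as the gene next to MIR193A, although it lies farther away. The 4 miRNAs and the lists were chosen with earlier results of these data known. Alternatives were RLE, upper-quartile, no scaling factors, TMM without the 10 most abundant miRNAs, DESeq2 1.42.0, limma-voom (limma 3.58.1), edgeR's exact test, other filters, a replicate block and each library left out. RefSeq names come from UU_Cfam_GSD_1.0, another build than CanFam3.1, so no coordinates are given.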

Additional observations from a re-analysis of the deposited data

How the results depend on the processing

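The number of miRNAs past both thresholds was 32, and from 30 to 34 with each library left out in turn. It was 125 at FDR below 0.05 alone. These 125 were 72 higher and 53 lower in CHMmTAM. At FDR alone, 64 were called higher and 73 lower with RLE size factors, 62 and 67 with TMM without the 10 most abundant miRNAs, 60 and 66 with DESeq2 and 41 and 100 with upper-quartile normalization. miR-193a passed FDR below 0.05 under RLE size factors (log2 fold change -0.18), TMM without the 10 most abundant miRNAs (-0.18), the DESeq2 Wald test (-0.18) and upper-quartile normalization (-0.37). Under the last, miR-22 turned to -0.17, miR-365 to -0.13 and miR-18b to -0.061. Upper-quartile normalization moved the median of all tested miRNAs from 0.060 to -0.181 and thus shifts all log2 fold changes downward. With each library left out, the log2 fold change ranged from -0.031 to 0.15 for miR-22, from -0.15 to -0.035 for miR-193a, from -0.20 to 0.19 for miR-193b, from 0.065 to 0.15 for miR-365, from 0.061 to 0.38 for miR-18b and from -0.92 to 0.44 for miR-145. With RLE size factors as well, which was chosen after seeing the data, they ranged from -0.13 to 0.13 for miR-22 (-0.00095 without CHMm replicate 2 and -0.024 without CHMm replicate 3), from -0.24 to -0.11 for miR-193a, from -0.28 to 0.17 for miR-193b and from -0.011 to 0.12 for miR-365. The differences in log2 ratio ranged, with each library left out, from 0.12 to 0.30 for miR-22 over miR-193a, from 0.10 to 0.30 for miR-365 over miR-193a, from -0.040 to 0.41 for miR-22 over miR-193b, from -0.18 to 0.055 for miR-22 over miR-365, from -0.34 to 0.26 for miR-193a over miR-193b and from -0.040 to 0.36 for miR-365 over miR-193b. The settings for the other repressors of ESR1 and the cell type markers were also chosen after seeing the data.

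With the replicate number as a block, the log2 fold changes of miR-22, miR-193a, miR-193b and miR-365 were 0.066, -0.12, -0.091 and 0.11, none past FDR below 0.05, and 31 miRNAs passed both thresholds. Deviations of same-numbered libraries over 117 miRNAs correlated at 0.062, 0.46 and -0.31 for replicates 1, 2 and 3. These values differ in sign and carry no test, so they do not decide whether same-numbered libraries share more than a number. Depth limits miR-193b and miR-145, whose counts allow no statement on small changes.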
